A study of Homo sapiens with 8 samples.

Results

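The STRIPAK complex, the phosphatase scaffold that opposes the MST kinases of the Hippo pathway, was examined in human podocytes in which the Hippo pathway had been activated by LATS2. The 9 STRIPAK genes were all rows of the gene table that carry the name STRN, STRN3, STRN4, STRIP2, SLMAP, SIKE1, FGFR1OP2, MOB4 or CTTNBP2NL, which gave 9 of 29004 loci. LATS2 OE cells were 4 samples of a stable line made from AB8/13, a line of immortalized human podocytes, in which wild-type LATS2 was induced from a lentiviral construct with 125 ng/mL doxycycline for 8 h. Untreated cells were 4 samples of the same line, which carry the construct but received no doxycycline. All samples thus came from 1 line, and the drug and the induction of LATS2 cannot be told apart. Poly(A) RNA was sequenced, and the table holds 1 pooled value per group in FPKM, which scales the fragments of a gene to the length of its exons and to the sequencing depth. There is therefore no value per sample and no SD. No test was run here, and each difference below is the ratio of 2 pooled values, without a replicate check. Nothing in the labels shows that the 4 samples of each kind were separate cultures, and the study's methods give a sequencing depth as 1 approximate figure, without the reads of each sample.

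STRIPAK (striatin-interacting phosphatase and kinase) complexes bring the catalytic and scaffold subunits of the phosphatase PP2A together with striatins, which act as its regulatory subunits. The complex holds kinases of the GCKIII family and can remove the activating phosphate from MST1 and MST2, the kinases that activate LATS1 and LATS2. Through this step STRIPAK keeps Hippo signaling low and allows YAP to stay in the nucleus, where YAP binds TEAD transcription factors.

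The size of the values needs a remark before they are read. In the deposited table the decimal point of most entries between 1 and 1000 FPKM stands 3 digits from the right whatever the level, so the digits of such a value are known but its power of 10 is not. No entry of at least 1 had more than 3 decimals, and for 97.9% of the 24849 entries of at least 1 the place of the point was open. The ratio of the groups was taken from the digits with the places that bring the 2 values nearest to each other, so it can lie between 3.16-fold higher and 3.16-fold lower, and a larger change would be misread. Among loci with intact values, 1.23% of 2524 loci with 0.3 to 1 FPKM in Untreated cells and less than 1 FPKM in LATS2 OE cells were lower by more than this, and 0.972% of 2573 loci with 0.3 to 1 FPKM in LATS2 OE cells and less than 1 FPKM in Untreated cells were higher by more than this. Levels are given below as deposited. Where the place is open, the true level may be 10-fold or 100-fold lower, while entries below 1 FPKM are settled. For the MOB4 locus the Untreated entry is intact, and the LATS2 OE entry is placed nearest to it. The plot of the allowed levels shows the places that remain for each gene.

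**Figure D1:**
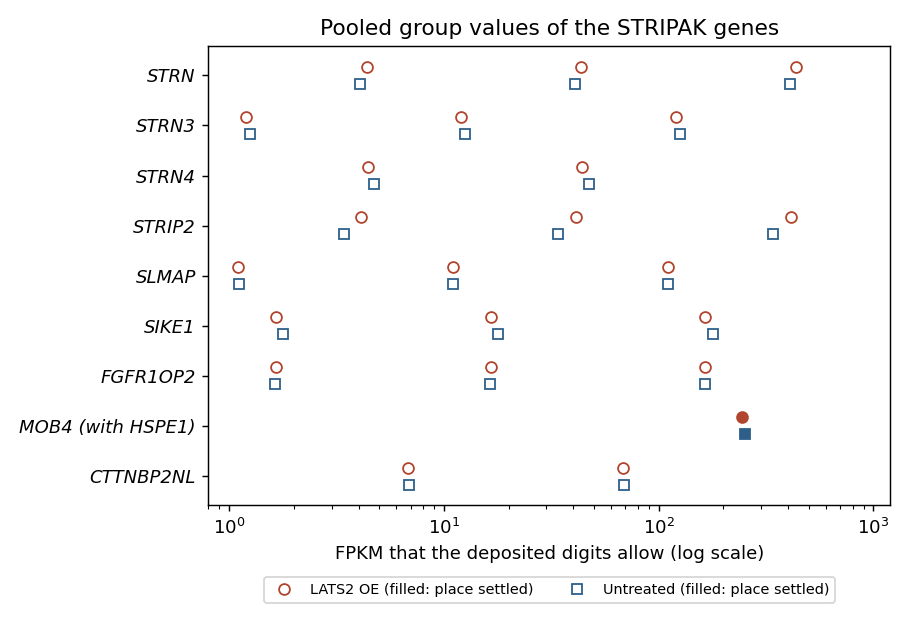
Pooled FPKM (log axis) that the deposited digits allow for each STRIPAK gene, with LATS2 OE as circles above Untreated as squares. The MOB4 locus alone (filled) has 1 allowed place, since its Untreated entry of 251 FPKM is intact. Its LATS2 OE entry of 243 FPKM is placed nearest to that value. Of the other genes, 2 have 2 and 6 have 3 allowed places.

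LATS2, the kinase carried by the construct, was deposited at 531 FPKM in LATS2 OE cells and 264 FPKM in Untreated cells. Its digits alone fit a 0.0201-, 0.201-, 2.01-, 20.1- or 201-fold level. An induced transgene may exceed the range in which the nearest place can be trusted. Its value was therefore not used as a check of the group labels. Of 8 podocyte markers, 3 (PODXL, SYNPO and CD2AP) reached at least 1 FPKM in both groups, with log2 ratios of LATS2 OE to Untreated of 0.29, -0.07 and -0.16. The slit diaphragm gene NPHS1 was at 0.00616 FPKM in LATS2 OE cells and 0.00875 FPKM in Untreated cells and thus close to absent in both groups. WT1 stood at 0.412 FPKM in LATS2 OE cells and 0.413 FPKM in Untreated cells. Of the markers of other cell types, 0 of 4 endothelial, 1 of 4 tubular, 1 of 3 leukocyte and 2 of 3 mesangial and stromal genes reached 1 FPKM in both groups, the last pair being ACTA2 with a log2 ratio of 0.21 and PDGFRB with one of -0.19. Their part in the ratios of the STRIPAK genes was not tested.

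STRIP2 was the 1 gene of the 9 whose pooled value differed by at least 1.2-fold between LATS2 OE and Untreated cells, and the other 8 lay within 1.1-fold. All 9 had at least 1 FPKM in both groups and thus passed the filter on low values, as did 12218 loci of the table, called expressed loci below. On the log2 scale their ratios of LATS2 OE to Untreated ran between -0.11 for SIKE1 and 0.27 for STRIP2, with 3 above and 6 below 0 and a median of -0.02. The median of all expressed loci was -0.0041. At least 1.2-fold higher in LATS2 OE cells was 1 of the 9 genes, STRIP2, against 6.18% of all expressed loci. At least 1.2-fold lower were 0 of the 9, against 6.57% of all expressed loci. With a limit of 1.1-fold the counts were again 1 higher and 0 lower, against 14.2% and 14.5% of all expressed loci. Within 1.1-fold of the Untreated level lay 8 of the 9 genes and 71.2% of all expressed loci. The median absolute log2 ratio was 0.0634 for the 9 genes and 0.0731 for all expressed loci, and 5 of the 9 genes lay below the value of all expressed loci and 4 above it. With 9 genes and no value per sample these shares are a description of the pooled values.

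**Figure D2:**
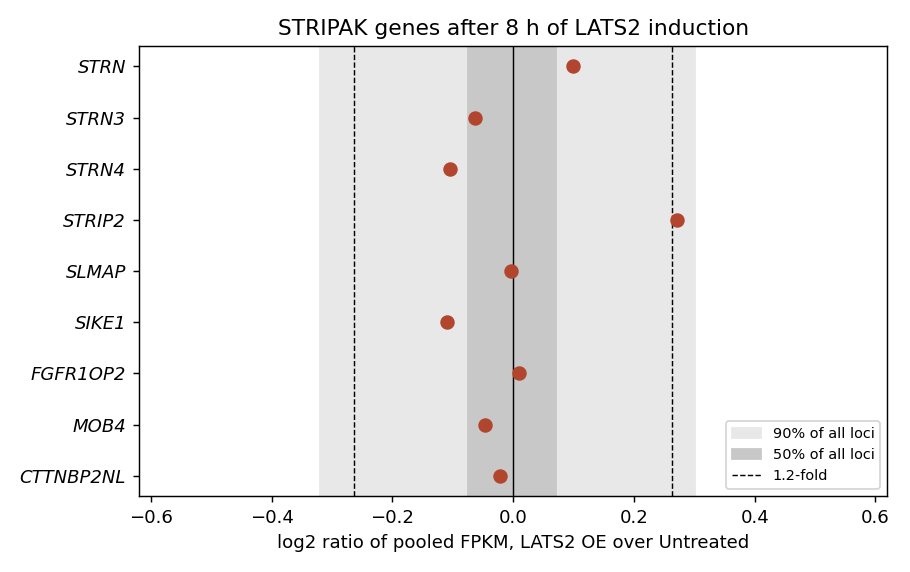
Log2 ratio of pooled FPKM, LATS2 OE over Untreated, of each STRIPAK gene (points), with the range that holds the middle 50% and 90% of all expressed loci as grey bands and 1.2-fold as dashed lines. STRIP2 at 0.27 lies past the dashed line and inside the 90% band, which ends at 0.30.

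The striatins, the regulatory subunits on which the complex is built, had ratios of both signs. STRN, which encodes striatin, was deposited at 436 FPKM in LATS2 OE cells and 407 FPKM in Untreated cells, which is 1.07-fold and a log2 ratio of 0.10. STRN3, which encodes striatin 3, was deposited at 119.8 FPKM in LATS2 OE cells and 125 FPKM in Untreated cells, a log2 ratio of -0.06. STRN4, which encodes striatin 4 (zinedin), had 44.1 FPKM in LATS2 OE cells and 474 FPKM in Untreated cells in the table as deposited. The first entry has 1 digit fewer. With the points placed next to each other, the log2 ratio of STRN4 was -0.10. As for each of the other STRIPAK genes, the digits also fit a change of about 10-fold. STRN was thus the higher one of the 3 in LATS2 OE cells relative to Untreated cells, and its ratio lay 0.20 above that of STRN4 and 0.16 above that of STRN3 on the log2 scale. Since their levels are open by a power of 10, the order of the striatins by level cannot be given.

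STRIP2, a large scaffold protein of the core of the complex, was deposited at 411 FPKM in LATS2 OE cells and 341 FPKM in Untreated cells, a 1.21-fold higher level and a log2 ratio of 0.27. This absolute ratio exceeded that of 87.8% of all expressed loci. Its ratio lay 0.38 above that of SIKE1, the lowest of the 9 genes, on the log2 scale. In bulk RNA a higher level per cell and a larger share of cells with the transcript cannot be told apart. If the level of STRIP2 is the lowest that its digits allow (4.11 FPKM in LATS2 OE and 3.41 FPKM in Untreated cells), a pseudocount of 1 FPKM takes its log2 ratio to 0.21, which is under 1.2-fold.

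The arm that joins STRIPAK to the MST kinases showed ratios near or below 0. SLMAP, a membrane-anchored protein that recognises phosphorylated MST1 and MST2, was deposited at 110.1 FPKM in LATS2 OE cells and 110.4 FPKM in Untreated cells. Its log2 ratio of -0.0039 was the nearest to 0 of the 9 genes. SIKE1, its partner that connects it with the striatins, was deposited at 165 FPKM in LATS2 OE cells and 178 FPKM in Untreated cells, the lowest log2 ratio of the 9 genes at -0.11. FGFR1OP2, a paralog of SIKE1, was deposited at 165 FPKM in LATS2 OE cells and 163.9 FPKM in Untreated cells, a log2 ratio of 0.0093. The absolute ratios of SLMAP and FGFR1OP2 exceeded those of 3.04% and 7.58% of all expressed loci, and that of SIKE1 exceeded 64.2%.

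MOB4 and CTTNBP2NL, the remaining subunits, also had ratios below 0. MOB4 (phocein), a MOB family protein bound to striatins, has no locus of its own. Its row carries 3 names, HSPE1, HSPE1-MOB4 and MOB4, and pools the gene with that of the mitochondrial chaperonin HSPE1 and with their read-through transcript. This locus was deposited at 243 FPKM in LATS2 OE cells and 251 FPKM in Untreated cells, a log2 ratio of -0.05, and the part of MOB4 in it is not known. CTTNBP2NL, a cortactin-binding protein of actin structures, was deposited at 679 FPKM in LATS2 OE cells and 68.9 FPKM in Untreated cells, again entries with a different number of digits. With the points placed next to each other it had 6.79 and 6.89 FPKM, or 10-fold these values, in LATS2 OE and Untreated cells, a log2 ratio of -0.02.

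**Figure D3:**
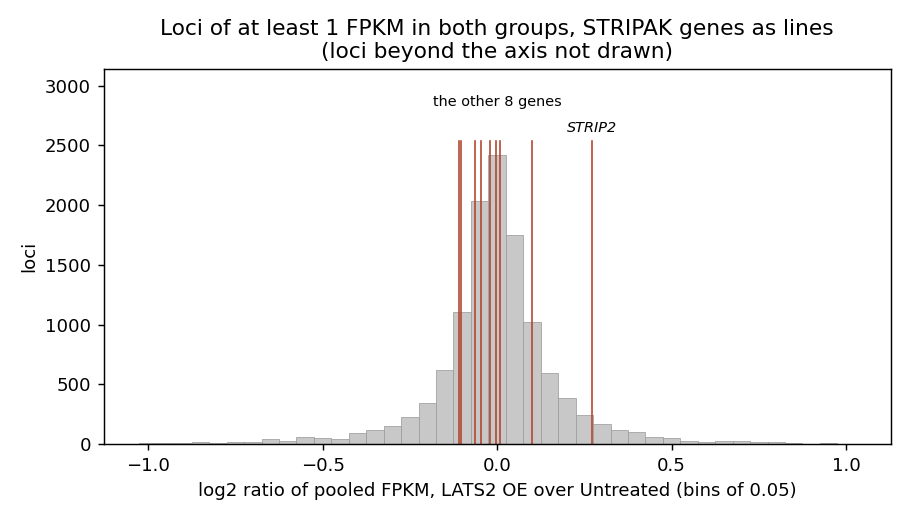
Number of loci (12218 expressed loci) by log2 ratio of LATS2 OE over Untreated in bins of 0.05, with the 9 STRIPAK genes as vertical lines. The lines of 8 genes lie between -0.11 and 0.10, and STRIP2 lies apart at 0.27. The 94 loci beyond 1.025 in either direction are not drawn.

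The position of each locus bears on what its value holds, since the library kit as named does not mark strand and reads of overlapping genes on opposite strands cannot be told apart. Coordinates are those of hg19 as in the table, and all 9 genes are annotated as protein-coding. STRIP2 lies on the plus strand of chromosome 7 from 129074179 to 129128239, SLMAP on the plus strand of chromosome 3 from 57740980 to 57915814, and STRN on the minus strand of chromosome 2 from 37064777 to 37193813. SIKE1 lies on the minus strand of chromosome 1 from 115312105 to 115323308 and CTTNBP2NL on its plus strand from 112938800 to 113003786. FGFR1OP2 lies on the plus strand of chromosome 12 from 27091305 to 27119581. These 6 loci overlap no other annotated protein-coding gene. The locus of STRN3 on the minus strand of chromosome 14, from 31363005 to 31565656, extends 70049 bp upstream of the annotated gene. It overlaps AP4S1 on the opposite strand, whose own row had a log2 ratio of 0.03. The STRN3 locus also overlaps COCH on that opposite strand, with a ratio of -0.08. The locus of STRN4 on the minus strand of chromosome 19, from 47222766 to 47261832, extends 11581 bp upstream of its gene. The locus of MOB4 on chromosome 2, from 198351308 to 198418423, starts 28987 bp before the annotated gene and overlaps HSPD1 on the opposite strand, which had a ratio of -0.13. How far overlapping genes enter the values of STRN3, STRN4 and MOB4 was not tested.

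Promoter sequences were set beside the ratios, since YAP reaches its targets through TEAD factors, which bind the letters GGAATG. RefSeq promoters (build GRCh38.p14) were found for 8 of the 9 genes, 12 entries in all, and STRN4 had no entry. Taking the 250 bases before each start and both strands, GGAATG stood in 2 entries, both of SLMAP, and in 11.9% of all 35116 promoters of the same length. The letters CCAAT, a common promoter element, stood in entries of 2 genes, STRIP2 and CTTNBP2NL, and in 32.0% of all promoters. The promoter of STRIP2, the gene with the largest ratio, and the pair of SLMAP promoters with GGAATG, the gene with the ratio nearest to 0, are shown 5′ to 3′ with the matches in capitals (CCAAT in STRIP2, GGAATG or its complement CATTCC in SLMAP).
STRIP2, chr7:129434182-129434431, plus strand: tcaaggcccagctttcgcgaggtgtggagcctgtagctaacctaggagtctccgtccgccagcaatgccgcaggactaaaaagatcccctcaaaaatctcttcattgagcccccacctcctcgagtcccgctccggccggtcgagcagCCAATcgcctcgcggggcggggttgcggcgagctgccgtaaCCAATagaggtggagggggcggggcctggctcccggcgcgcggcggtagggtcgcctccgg
SLMAP, chr3:57756059-57756308, plus strand: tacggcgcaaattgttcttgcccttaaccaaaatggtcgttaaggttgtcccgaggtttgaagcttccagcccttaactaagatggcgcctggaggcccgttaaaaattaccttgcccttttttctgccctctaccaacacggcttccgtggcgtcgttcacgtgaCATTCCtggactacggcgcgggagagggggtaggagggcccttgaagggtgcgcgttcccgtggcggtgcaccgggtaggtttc
SLMAP, chr3:57889752-57890001, plus strand: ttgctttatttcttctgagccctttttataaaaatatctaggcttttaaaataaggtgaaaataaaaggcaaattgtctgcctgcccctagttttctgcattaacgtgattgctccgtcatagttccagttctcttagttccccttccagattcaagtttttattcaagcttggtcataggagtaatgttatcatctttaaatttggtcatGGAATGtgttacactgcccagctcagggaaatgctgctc
The matches of STRIP2 begin 102 and 61 bases before the start, and those of SLMAP begin 84 and 39 bases before the start of their entries. In this window STRIP2 holds no GGAATG, and 2 of the 3 SLMAP entries hold it. Sequence outside the window was not searched, and a part of TEAD factors in these ratios was not tested. A match of 6 letters is a description of the sequence and does not show a bound site.

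The partners of these subunits in the complex that reached 1 FPKM in both groups had ratios near 0. The list of 11 STRIPAK partners comprised the PP2A core, the GCKIII kinases and further subunits, and 9 of them had at least 1 FPKM in both groups. Of these 9, 0 were at least 1.1-fold higher and 0 at least 1.1-fold lower in LATS2 OE cells, against 14.2% and 14.5% of all expressed loci, with log2 ratios between -0.06 and 0.07 and a median of -0.0080. PPP2CA and PPP2CB, the catalytic subunits of PP2A, had log2 ratios of 0.00043 and 0.04. PPP2R1A and PPP2R1B, its scaffold subunits, had ratios of -0.04 and -0.03. Among the GCKIII kinases STK24 had a ratio of 0.07, STK25 one of -0.06 and STK26 one of -0.0080, and PDCD10, the adaptor of these kinases, had a ratio of 0.03. CTTNBP2, the paralog of CTTNBP2NL, was below 1 FPKM in both groups, at 0.764 FPKM in LATS2 OE cells and 0.667 FPKM in Untreated cells. Its log2 ratio was 0.20. TRAF3IP3 was below 1 FPKM in Untreated cells, at 0.939 FPKM, and was deposited at 107.8 FPKM in LATS2 OE cells. With that entry placed nearest to the Untreated value, its log2 ratio was 0.20. Both ratios were higher than those of the 9 partners that passed the filter.

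The list of other regulatory subunits of PP2A, which bind the same core enzyme as the striatins, also held the PP2A activator PTPA. Its genes had log2 ratios between -0.31 and 0.36. Of 13 genes, 10 had at least 1 FPKM in both groups, with a median of 0.05, and 1 was at least 1.2-fold higher and 1 at least 1.2-fold lower, against 6.18% and 6.57% of all expressed loci. PPP2R5B, of the B56 family, was deposited at 568 FPKM in LATS2 OE cells and 444 FPKM in Untreated cells, a log2 ratio of 0.36. PPP2R3A was deposited at 123 FPKM in LATS2 OE cells and 153 FPKM in Untreated cells, a log2 ratio of -0.31. PPP2R5D and PPP2R2A followed with ratios of 0.11 and -0.09.

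Among the kinases that STRIPAK opposes or binds and their partners, the genes of the scaffolds KIBRA and merlin had the lowest ratios. Of 20 genes, 17 had at least 1 FPKM in both groups, with a median log2 ratio of -0.02, and 0 were at least 1.2-fold higher and 2 at least 1.2-fold lower, against 6.18% and 6.57% of all expressed loci. These were WWC1 (KIBRA) and NF2 (merlin), both of which promote LATS activity. The list was written with earlier results of these data known, so this count is a description only. WWC1 had a log2 ratio of -0.59, with deposited digits that fit 1.87 FPKM in LATS2 OE cells and 2.82 FPKM in Untreated cells or 10-fold these values. NF2 was deposited at 279.6 FPKM in LATS2 OE cells and 409 FPKM in Untreated cells, a log2 ratio of -0.55. SAV1, the adaptor that links the MST kinases with LATS, and MAP4K3 had ratios of -0.23 and -0.15. STK3 and STK4, which encode MST2 and MST1, the substrates of STRIPAK, had ratios of -0.02 and -0.11. The ratios of STK3, STK4, SLMAP and the PP2A catalytic subunits all lay within 1.1-fold, as did those of 71.2% of all expressed loci.

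**Figure D4:**
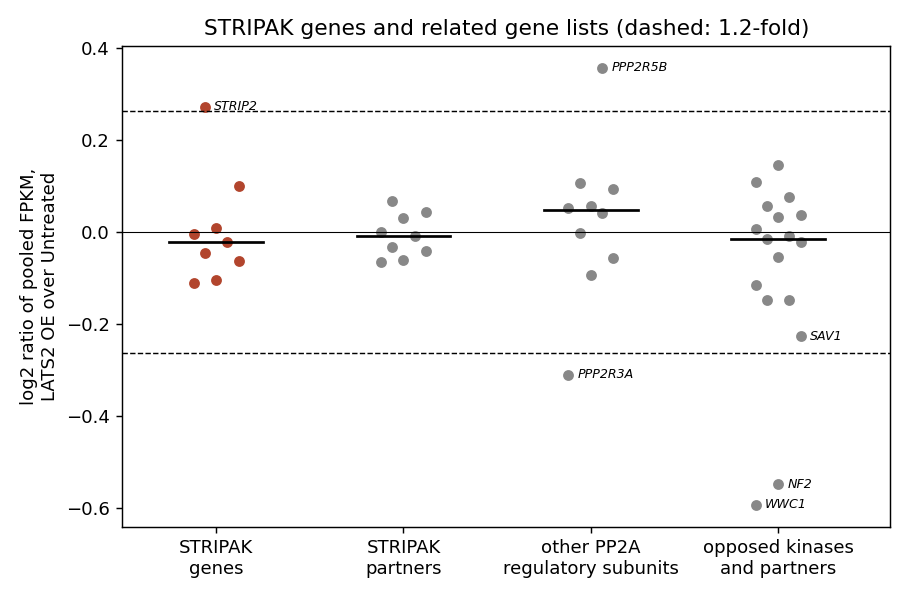
Log2 ratio of pooled FPKM, LATS2 OE over Untreated, of each gene of at least 1 FPKM in both groups in the 9 STRIPAK genes, the 9 measured STRIPAK partners, the 10 other PP2A regulatory subunits (PTPA included) and the 17 opposed kinases and partners, with medians as black bars and 1.2-fold as dashed lines. The partners lie between -0.06 and 0.07, STRIP2 and PPP2R5B lie above the upper line, and PPP2R3A, NF2 and WWC1 lie below the lower line.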

How the data were processed

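RNA of 4 LATS2 OE and 4 Untreated samples of 1 AB8/13 line was sequenced. After trimming with Trimmomatic (version 0.33) and alignment to hg19 with TopHat, the authors used the Cufflinks package to obtain FPKM values, and they deposited 1 pooled FPKM value per group and locus. Versions of TopHat and Cufflinks and the depth per sample were not given in the sources used here. Beside the FPKM columns, this table holds the authors' own log2 ratio, test statistic, p-value and q-value, which were not used. Values of some list members and neighbouring genes are not reported here. Loci listed at 0 can be failed estimates, as ACTB and EEF1A1 were listed at 0 in both groups.

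Entries below 1, those with fewer than 3 decimals and those of 1000 or more were read as written. For the others the digits were kept, and the places of the decimal point were chosen that gave the ratio nearest to 1 (Python 3.11.15, numpy 2.4.6). As deposited, 1414 of the 12218 expressed loci (at least 1 FPKM in LATS2 OE and in Untreated cells) had values 10-fold apart within 10%. Ratios are log2(LATS2 OE/Untreated) without a pseudocount. Apart from CTTNBP2 and TRAF3IP3 they are given for expressed loci only, and a locus counts as higher or lower from 1.2-fold on. The planned fallback, limma on values of single samples, was not possible.

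The genes and lists were chosen with earlier results of these data known. Named are the 9 genes, LATS2, the 4 genes of each list with the largest absolute ratio, the GCKIII kinases, PDCD10, STK3 and STK4, and further list members and overlapping genes were named after their values were seen. Of the 44 list entries 44 had a locus, PTPA under its older symbol PPP2R4. Genes were placed with GENCODE on GRCh37, which has the coordinates of hg19.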

Additional observations from a re-analysis of the deposited data

How the results depend on the processing

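The ratios of the 9 genes were recomputed with a pseudocount of 0.1 or 1 FPKM (at the lowest level the digits allow) and after centring on the median of all expressed loci. Of 27 such values, 26 stayed on their side of 1.2-fold. The exception was STRIP2 with a pseudocount of 1, at 0.21, which takes the count of genes at least 1.2-fold higher to 0. That count was also 0 with a limit of 1.5-fold. The sign of 1 gene, SLMAP, changed with centring. Of all expressed loci, 96.8% lay within 1.5-fold. Against a main count of 1 and 1, 0 of the other PP2A regulatory subunits were higher and 0 lower at 1.5-fold. With no minimum of 1 FPKM, 2 were higher and 2 lower. The added genes were close to absent. PPP2R2C had 0.00647 FPKM in LATS2 OE and 0.0014 FPKM in Untreated cells, and PPP2R2B had 0.00206 and 0.00437 FPKM. Against a main count of 0 and 2, 1 of the opposed kinases and partners was higher and 5 were lower at 1.1-fold (14.2% and 14.5% of all expressed loci). At 1.5-fold 1 was lower, and 3 were higher with no minimum. These 3 were MAP4K1, TNIK and RASSF5, each below 1 FPKM in at least 1 group. For the counts without a minimum no share of all loci is given. Counts of the STRIPAK partners are given for genes of at least 1 FPKM. No paired analysis was possible because the table holds 1 pooled value per group, and leaving out a replicate was not possible for the same reason. No gene of the 9 had intact entries in both groups, so the ratios could not be given from intact entries alone. The depth per sample is unknown, so no counting error can be given for any value.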
